A study of Mus musculus with 4 samples.

Results

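The genes described here encode core subunits of the Polycomb repressive complexes in mouse bone marrow progenitors. They were the 10 rows of the deposited expression table whose gene symbol was Ezh1, Ezh2, Eed, Suz12, Jarid2, Bmi1, Ring1, Rnf2, Cbx7 or Cbx8, and all 10 were found among the 28987 genes of that table. RNA was sequenced from c-Kit-positive (CD117-selected) marrow cells of C57BL/6 mice in 4 libraries, 2 in each group. Every library came from mice with 1 partial tandem duplication allele of Mll (MllPTD/WT) and a homozygous floxed Runx1 gene with Mx1-Cre, a recombinase driven by an interferon-inducible promoter that is active in many cell types. The Hif1a-intact group carried these alleles only, and the group labelled Hif1a-null carried a homozygous floxed Hif-1α gene as well. The sample titles call all 4 libraries Runx1null. The sources used here do not give ages, the agent that induced Cre or whether separate mice were used, so p-values capture the spread among these samples alone, and that spread may be technical. The comparison addresses which transcripts differ with Hif1a status in cells whose labels share the Mll duplication and the floxed Runx1 gene.

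Polycomb proteins keep developmental genes silent through 2 complexes. Polycomb repressive complex 2 (PRC2) places methyl groups on lysine 27 of histone H3 through Ezh1 or Ezh2, which need the partners Eed and Suz12. Polycomb repressive complex 1 (PRC1) ubiquitylates histone H2A through Ring1 or Rnf2, and its canonical form reads the PRC2 mark through a Cbx chromodomain protein. In blood, Bmi1 is known for keeping stem cells self-renewing by silencing the Cdkn2a locus, and Ezh2 is a gene mutated in myeloid disease.

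Expression is given as TPM (transcript abundance scaled by length and library total), a share of the RNA in a library, so levels can be compared between genes, but sequencing depth is unknown. Hif1a itself read 100.3 and 75.2 TPM with Hif1a intact against 98.8 and 113 TPM under the Hif1a-null label, with no decrease. Below, pairs of values are given in this order, Hif1a-intact replicates 1 and 2 against Hif1a-null replicates 1 and 2. A gene-level TPM includes exons outside the floxed part, so this does not check the deletion, and every direction below rests on the labels. Runx1, floxed in all 4 libraries, read 73.6 and 76.6 TPM against 48.4 and 46.7 TPM. Its log2 fold change of -0.65 did not pass the test described below (limma, adjusted p = 0.0636). Effects of any Runx1 difference and of Hif1a status cannot be told apart. Kmt2a, the gene of the duplication, read 9.41 and 9.96 TPM against 9.77 and 9.03 TPM. The label of stem and progenitor cells was only partly borne out by the markers: Kit averaged 119 and Cd34 220 TPM, while the neutrophil granule gene Camp read between 8917 and 11693 TPM.

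None of the 10 Polycomb genes passed the test between the groups. The test was limma on log2(TPM + 1), fitted over the 11909 genes that reached 1 TPM in 2 or more libraries, with a Benjamini-Hochberg adjusted p under 0.05 as threshold. All 10 passed that filter, and each read above 1 TPM in all 4 libraries. On simulated data the same test recovered 16% of genes given a log2 change of 1 and 54% of those given 2. The simulation changed few genes, none of them low, and shuffled the spreads among genes. It gave 130 calls where the data gave 866, so these shares are not the power of the test here. With 2 libraries a group, the test can still miss many changes. Across all tested genes 7.27% passed, 5.25% higher and 2.02% lower in the libraries labelled Hif1a-null, so that a count of 0 among 10 lies near the background share. The median log2 fold change of the 10 genes was -0.05, beside -0.06 for all tested genes. At an unadjusted p under 0.05, 1 of the 10 passed (Bmi1), against 23.2% of all tested genes. On the scale of TPM + 1, the 95% interval lay within 2-fold in either direction for 9 of the 10 genes. The share of all tested genes was 67.6%. This scale understates changes in TPM for low genes, and the intervals capture the spread among these samples alone.

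**Figure D1:**
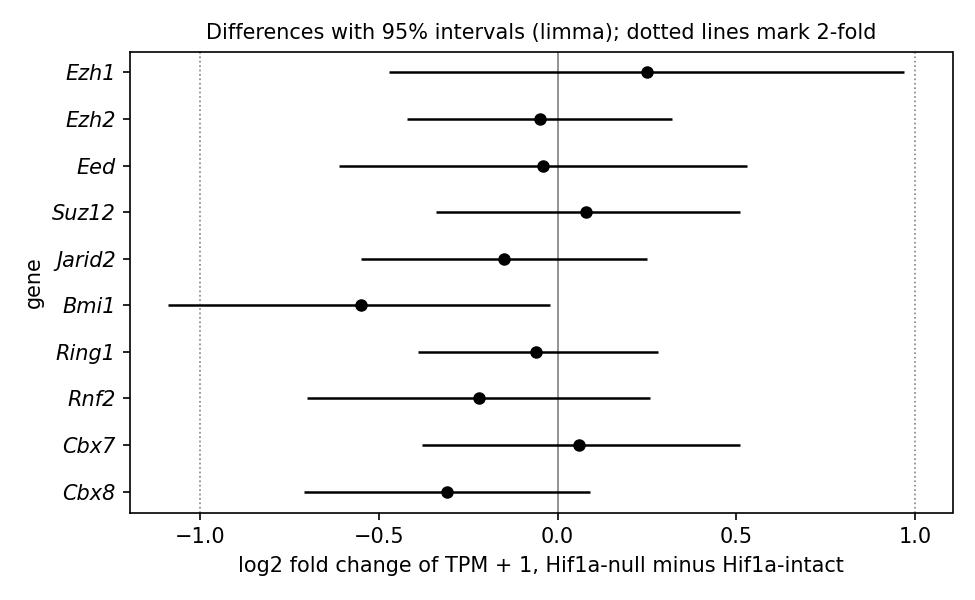
Log2 fold change of each Polycomb gene (points; horizontal axis, log2 of TPM + 1, libraries labelled Hif1a-null minus Hif1a-intact) with its 95% interval from limma (lines, n = 2 each). Intervals of 9 genes stay inside the dotted 2-fold lines, and that of Bmi1 runs from -1.09 to -0.02.

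The promoters were read because HIF-1 binds a short core motif. The RefSeq windows (GRCm38.p6; 250 bases before to 50 after each transcript start) matched all 10 genes. The letters ACGTG or GCGTG on either strand, the HIF core, occurred in windows of 9 of the 10 genes, all but Eed, and in 43.8% of all 32851 windows. The E2F motif letters TTTCCCGC or TTTGGCGC, either strand, occurred for Ezh2 and Suz12 and in 1.56% of all windows. The members are counted as genes, which had 11 windows in all, and the background as single windows. Base content was not matched, so neither comparison is a test of enrichment. Windows of Ezh2, Jarid2 and Cbx7 lie inside the gene spans given further on, whose outermost starts differ from the RefSeq ones. Below are the 250 bases upstream of the RefSeq start for Bmi1 and Ezh2. Bmi1 (chr2:18676768-18677017, plus strand) had the largest difference, which did not pass the test. The groups overlapped for Ezh2 (chr6:47595031-47595280, minus strand). Capitals mark the HIF core on either strand.
Bmi1: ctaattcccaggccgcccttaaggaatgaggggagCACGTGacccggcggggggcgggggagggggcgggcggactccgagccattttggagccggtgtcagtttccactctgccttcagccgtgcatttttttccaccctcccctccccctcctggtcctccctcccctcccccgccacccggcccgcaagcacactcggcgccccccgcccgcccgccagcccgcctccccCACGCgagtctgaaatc
Ezh2: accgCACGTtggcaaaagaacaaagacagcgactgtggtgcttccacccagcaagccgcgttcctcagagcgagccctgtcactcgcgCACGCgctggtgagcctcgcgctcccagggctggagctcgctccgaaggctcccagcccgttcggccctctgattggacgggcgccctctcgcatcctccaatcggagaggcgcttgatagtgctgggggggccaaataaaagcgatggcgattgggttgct
Bmi1 held 3 matches, of which the palindrome CACGTG counts on both strands, and Ezh2 held 2, while the E2F match of Ezh2 lay in the 50 bases after the start. These matches are a description of the letters, and their relation to the expression values was not tested.

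The levels of the 10 genes spanned a 39.0-fold range. Suz12 was the most abundant, with a mean of 135 TPM over the 4 libraries, above 92.7% of tested genes. Ezh2 followed with 79.7, Bmi1 with 46.0, Rnf2 with 34.4, Eed with 18.3 and Jarid2 with 12.5 TPM. Ezh1 averaged 9.65, Ring1 6.01, Cbx8 3.90 and Cbx7 3.46 TPM, and Cbx7 lay above only 18.8% of tested genes. The ranges over the 4 libraries overlapped for 3 pairs of neighbours in this order, Bmi1 with Rnf2, Jarid2 with Ezh1 and Cbx8 with Cbx7, and the other 6 pairs were separated. The core PRC2 genes Suz12 and Ezh2 thus stood above every PRC1 gene of the set, and Eed, the third core subunit, stood below Bmi1 and Rnf2.

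**Figure D2:**
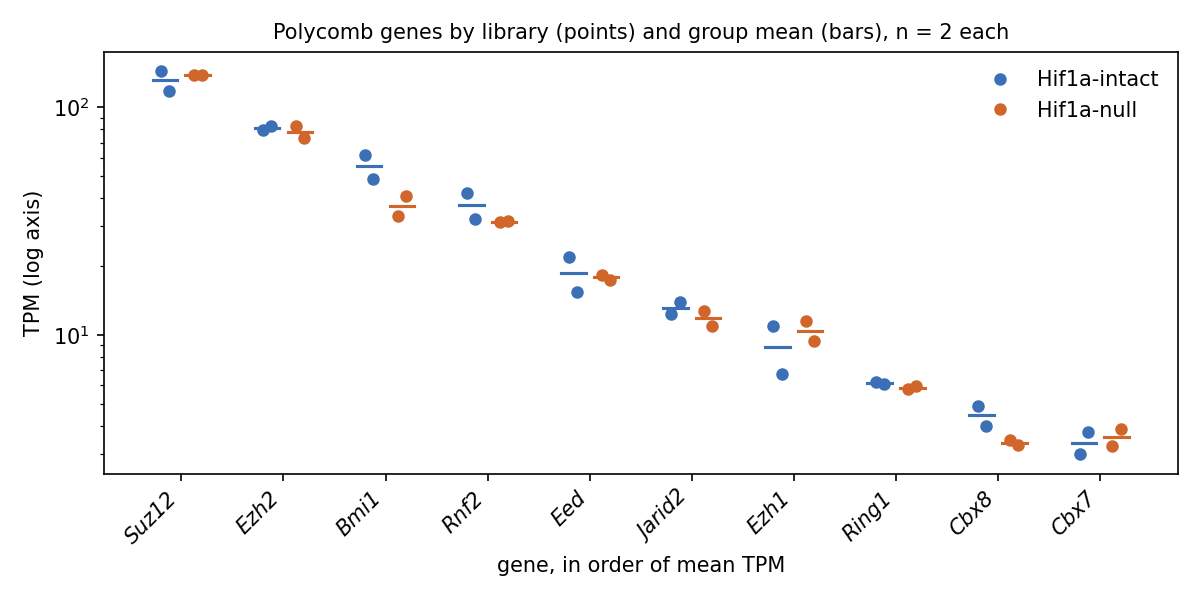
TPM of the 10 Polycomb genes (vertical axis, logarithmic) in each library (points) with group means (bars), n = 2 each. The order of levels from Suz12 to Cbx7 is shared by both groups apart from neighbours whose points overlap, and the points of Bmi1, Rnf2, Ring1 and Cbx8 lie lower in the libraries labelled Hif1a-null.

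Among the PRC2 genes the libraries of both groups overlapped for every subunit. Ezh2 (ENSMUSG00000029687, GRCm38 chromosome 6, 47530139 to 47595341, minus strand), the main H3K27 methyltransferase of dividing cells, read 79.5 and 82.6 TPM against 83.0 and 73.6 TPM. The highest and the lowest value both came from the latter group. The fitted log2 fold change, -0.05 (standard error 0.14; limma, adjusted p = 0.868), had a 95% interval from -0.42 to 0.32. The sign was not stable: it was 0.06, 0.01 and 0.04 after quantile normalization, median-ratio rescaling and removal of the 50 most abundant genes. Suz12 (ENSMUSG00000017548, chromosome 11, 79993106 to 80034123, plus strand), the subunit that holds the complex together, read 145 and 118 TPM against 139 and 139 TPM. Both values of the second group fell between those of the first. Its log2 fold change was 0.08 with an interval from -0.34 to 0.51 (limma, adjusted p = 0.804), and -0.06 without Hif1a-intact replicate 2.

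Eed (ENSMUSG00000030619, chromosome 7, 89954654 to 89980983, minus strand), which binds the methylated histone tail, read 22.1 and 15.4 TPM against 18.4 and 17.5 TPM. Here too the libraries labelled Hif1a-null lay inside the Hif1a-intact range, with a log2 fold change of -0.04 (interval -0.61 to 0.53; limma, adjusted p = 0.938). That value was 0.21 without Hif1a-intact replicate 1, and 0.01, 0.02 and 0.05 under the 3 ways of rescaling the libraries. Ezh1 (ENSMUSG00000006920, chromosome 11, 101191115 to 101226463, minus strand), the paralog prominent in resting cells, read 10.9 and 6.75 TPM against 11.5 and 9.39 TPM. Hif1a-intact replicate 2 was the lowest library. Its log2 fold change of 0.25 had the widest interval of the set, from -0.47 to 0.97 (limma, adjusted p = 0.639), and was -0.06 without that library. Jarid2 (ENSMUSG00000038518, chromosome 13, 44729474 to 44921643, plus strand), which guides PRC2 to chromatin, read 12.4 and 14.0 TPM against 12.7 and 11.0 TPM. The log2 fold change was -0.15 (interval -0.55 to 0.25; limma, adjusted p = 0.622).

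No PRC1 gene passed the test either. For 4 of the 10 genes the 2 groups did not overlap, and all 4 were PRC1 genes that were lower in the libraries labelled Hif1a-null: Bmi1, Rnf2, Ring1 and Cbx8. Among all tested genes 32.3% were lower without overlap, and 55% did not overlap in either direction, so the members' share is near the background.

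Bmi1 (ENSMUSG00000026739, chromosome 2, 18677018 to 18686629, plus strand), the Pcgf subunit that activates the ligase of canonical PRC1, showed the largest difference of the 10. It read 61.6 and 48.5 TPM against 33.3 and 40.8 TPM. Both libraries labelled Hif1a-null lay below both others, with group means of 55.0 ± 9.27 and 37.1 ± 5.30 TPM (SD, n = 2 each). The fitted log2 fold change, -0.55 (standard error 0.20), had an interval from -1.09 to -0.02 (limma, adjusted p = 0.201). It ran from -0.72 to -0.38 over 17 alternatives, with adjusted p from 0.116 to 0.835. An annotated processed copy of Bmi1 on chromosome X (Gm5946) reached at most 0.00416 TPM, so adding it left these values as they were.

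Rnf2 (ENSMUSG00000026484, chromosome 1, 151458004 to 151500955, minus strand), the main ubiquitin ligase of PRC1, read 42.2 and 32.4 TPM against 31.3 and 31.7 TPM. Hif1a-intact replicate 1 stood apart from the other 3 libraries. The log2 fold change of -0.22 (interval -0.70 to 0.26; limma, adjusted p = 0.529) was -0.04 without that library. Its paralog Ring1 (ENSMUSG00000024325, chromosome 17, 34020792 to 34024680, minus strand) read 6.19 and 6.12 TPM against 5.77 and 5.98 TPM. The gap between the groups was small, a log2 fold change of -0.06 (interval -0.39 to 0.28; limma, adjusted p = 0.831), and it was 0.02 with the 50 most abundant genes left out.

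Cbx8 (ENSMUSG00000025578, chromosome 11, 119036305 to 119040969, minus strand), a chromodomain subunit, read 4.88 and 3.98 TPM against 3.44 and 3.30 TPM. The log2 fold change was -0.31 (interval -0.71 to 0.09; limma, adjusted p = 0.313). Cbx7 (ENSMUSG00000053411, chromosome 15, 79915807 to 79971119, minus strand), the chromodomain subunit linked to stem cell self-renewal, read 2.99 and 3.74 TPM against 3.25 and 3.88 TPM. Its libraries interleaved, with a log2 fold change of 0.06 (interval -0.38 to 0.51; limma, adjusted p = 0.859) that was -0.05 after quantile normalization. Cbx7 and Cbx8 each sit beside relatives. Cbx2 ends 5.04 kb from Cbx8 on chromosome 11, and Cbx6 lies 81.1 kb from Cbx7 on chromosome 15. The neighbours did not follow 1 pattern. Cbx2, named as a neighbour after its values were seen, read 2.01 and 5.72 TPM against 3.10 and 3.86 TPM. Cbx6 was higher, at 3.30 and 3.24 TPM against 5.45 and 5.15 TPM, and did not pass (log2 fold change 0.56; limma, adjusted p = 0.0882).

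Hif1a-intact replicate 1 gave the highest of the 4 values for 6 of the 10 genes. The 2 Hif1a-intact libraries differed by a median of 1.24-fold per gene and at most 1.62-fold (Ezh1), and the 2 libraries labelled Hif1a-null by 1.09-fold and at most 1.23-fold. Ezh2, Suz12, Eed, Jarid2, Rnf2 and Cbx7 overlap annotated genes on the opposite strand. The sources used here do not state a strand setting for the quantification, so reads in the overlaps may be shared.

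Paralogs that take the same place in a complex were compared as ratios within each library, which do not depend on how libraries are scaled. Ezh2 exceeded Ezh1 by 7.28- and 12.2-fold in the Hif1a-intact libraries and by 7.19- and 7.84-fold in those labelled Hif1a-null. Rnf2 exceeded Ring1 by 6.82- and 5.29-fold against 5.43- and 5.30-fold. In both pairs the same paralog dominated in all 4 libraries and the groups overlapped. Cbx8 and Cbx7 were near parity, with ratios of 1.63 and 1.06 against 1.06 and 0.852. The log2 differences between groups were -0.33, -0.16 and -0.47, with two-sided exact permutation p = 0.667, 1.0 and 0.333 (1.0 each when adjusted over the 3 ratios). With 2 libraries against 2 the smallest p this exact test can give is 0.333, so it could not pass the threshold at any size of difference.

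Other subunits of the same complexes gave 1 called gene, where 7.27% of all tested genes were called. Among 9 other PRC2 genes, of median log2 fold change -0.08, none was called by limma. At an unadjusted p under 0.05, 1 passed (Epop), against 23.2% of all tested genes. Epop, a PRC2 accessory protein that links to elongin, read 2.62 and 2.79 TPM against 1.72 and 1.58 TPM (limma, adjusted p = 0.123). Aebp2, a zinc finger cofactor, read 109 and 108 TPM against 91.1 and 87.2 TPM (limma, adjusted p = 0.277). Lcor was lower as well (log2 fold change -0.21), and Phf1 and Phf19, which bind methylated histone tails, had values of 0.10 and 0.14, the latter -0.09 without Hif1a-intact replicate 1. None of these 5 passed.

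Among 8 tested of 9 other canonical PRC1 genes, of median -0.08, none was called by limma either. At an unadjusted p under 0.05, 1 passed (Cbx6), against 23.2% of all tested genes. Pcgf2, the closest relative of Bmi1, read 3.67 and 3.15 TPM against 2.25 and 0.411 TPM. The libraries labelled Hif1a-null differed widely from each other, and the log2 fold change of -1.04 had an interval from -2.23 to 0.15 (limma, adjusted p = 0.261). The Polycomb proteins Scmh1 and Phc2 had log2 fold changes of -0.41 and -0.23, neither of which passed. Scml4 was under 1 TPM in all 4 libraries and was not tested.

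Variant PRC1 complexes carry Rybp or Yaf2 in place of a Cbx protein, and 1 of them joins Bcor or Bcorl1 with Pcgf1 and the CpG-island reader Kdm2b. Of 14 tested genes in the list of 15, 1 fell and none rose, beside the 2.02% and 5.25% of all genes, and the list median was -0.16. The gene that fell was Bcorl1, at 7.52 and 6.37 TPM against 3.26 and 3.04 TPM (6.95 ± 0.813 and 3.15 ± 0.153, SD, n = 2 each). The fitted log2 fold change was -0.93 (standard error 0.14; limma, adjusted p = 0.0397), and the call was lost in 6 of 17 alternatives. Among these were the fits without Hif1a-intact replicate 1 (adjusted p = 0.0516), Hif1a-null replicate 1 (0.403) and Hif1a-null replicate 2 (0.493). Bcor, which is mutated in myeloid disease, read 123 and 131 TPM against 83.5 and 69.8 TPM. Its groups were well apart, but the log2 fold change of -0.72 did not pass (limma, adjusted p = 0.0801). Kdm2b read 51.1 and 82.4 TPM against 37.9 and 34.2 TPM (log2 fold change -0.83; limma, adjusted p = 0.176). It passed without Hif1a-intact replicate 1 (-1.17, adjusted p = 0.0422). Kdm2b shares sequence with a processed pseudogene on chromosome 4, Gm12397, and summed with it read 159 and 200.2 TPM against 113 and 88.6 TPM (limma, adjusted p = 0.111).

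Pcgf1, the partner of Bcor in that complex, had the opposite sign: 0.663 and 0.373 TPM against 1.24 and 1.27 TPM. It was under 1 TPM in both Hif1a-intact libraries and entered the test only through the other group, which fixed its direction, and it did not pass (limma, adjusted p = 0.127). Pcgf5, of another variant complex, read 34.9 and 30.1 TPM against 23.1 and 22.5 TPM (log2 fold change -0.49; limma, adjusted p = 0.144). At an unadjusted p under 0.05, 4 variant PRC1 genes were lower and 1 was higher of 14, against 23.2% of all tested genes in either direction.

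Genes of enzymes that reverse Polycomb marks were not called by limma, and none reached an unadjusted p under 0.05. The shares of all tested genes were 7.27% and 23.2%. Among 9 tested of 10 genes of the Polycomb deubiquitinase complex (PR-DUB) the median was -0.05, with Foxk1 at -0.29, Asxl2 at -0.31, Bap1, the catalytic subunit, at -0.15, Hcfc1 at -0.13 and Ogt at 0.23. Asxl3 was listed at 0 in all 4 libraries. The H3K27 demethylase gene Kdm6a read 20.0 and 19.2 TPM against 23.9 and 25.8 TPM, with no overlap between groups (log2 fold change 0.32; limma, adjusted p = 0.241). Kdm6b read 5.91 and 5.39 TPM against 6.89 and 5.83 TPM (limma, adjusted p = 0.628).

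**Figure D3:**
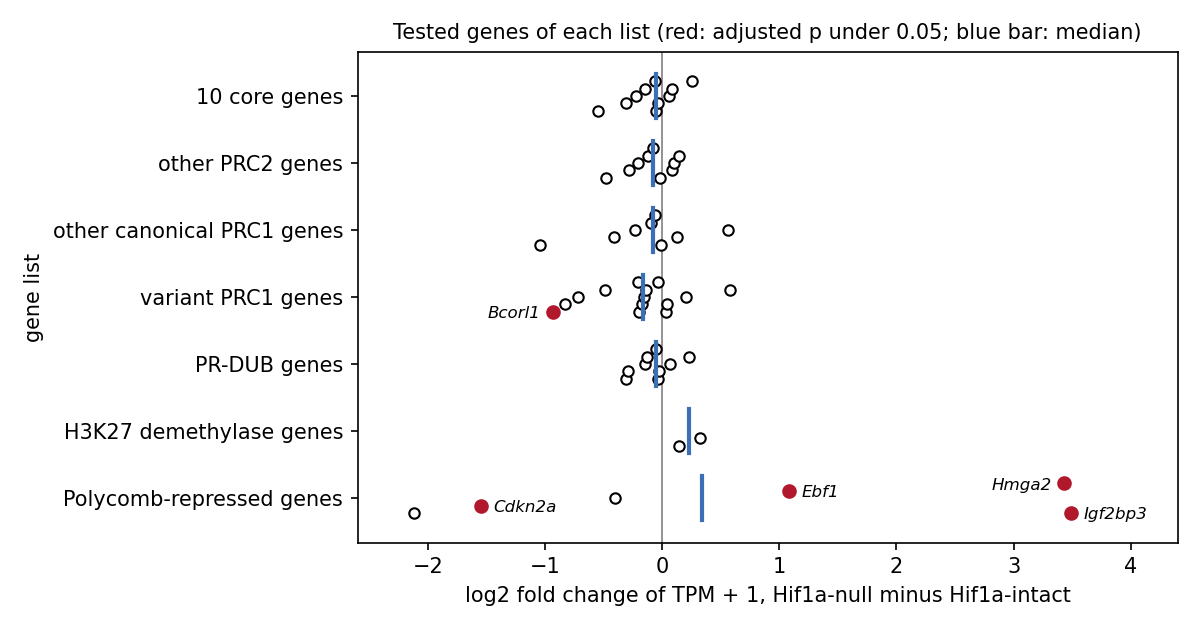
Log2 fold change (horizontal axis, log2 of TPM + 1, libraries labelled Hif1a-null minus Hif1a-intact) of each tested gene by gene list. Red points passed the test, open points did not and blue bars are list medians. The 10 core genes lie between -0.55 and 0.25, whereas Hmga2 and Igf2bp3 lie at 3.43 and 3.49.

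Genes known to be silenced by Polycomb were listed separately from the complexes. Of 18 listed, 11 were under 1 TPM in all 4 libraries, among them the embryonic regulators Gata4, Gata6, Sox7, Sox17, Foxc1 and Tbx3. Only 6 were tested, of which 3 rose and 1 fell, beside the 5.25% higher and 2.02% lower of all tested genes. The list was chosen with earlier results of these data known, so these counts are no result about Polycomb targets as a class. Of the 3 that rose, Igf2bp3 and Ebf1 entered the test only through the higher group, which fixed their direction, and Hmga2 alone was above 1 TPM in both groups. Hmga2, a chromatin protein of fetal stem cells, read 5.38 and 4.23 TPM against 60.6 and 62.1 TPM. Each library labelled Hif1a-null was far above both others, with means of 4.81 ± 0.814 and 61.4 ± 1.04 TPM (SD, n = 2 each), a 12.8-fold ratio. The fitted log2 fold change was 3.43 (standard error 0.16; limma, adjusted p = 0.00494). It was 3.45 without Hif1a-null replicate 1 and 3.41 without Hif1a-null replicate 2, where the adjusted p was 0.0628 and 0.0796.

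Igf2bp3, a fetal RNA-binding protein, was listed at 0.107 and 0 TPM against 10.7 and 11.0 TPM (log2 fold change 3.49; limma, adjusted p = 0.00349). It entered the test only through the higher group. Its annotated transcripts overlap those of the neighbour Malsu1 on the opposite strand of chromosome 6. Summed with Malsu1, the log2 fold change was 0.83 and did not pass (limma, adjusted p = 0.230). Malsu1 is a different gene, so the sum carries its level and spread and cannot tell whether Igf2bp3 itself changed. Malsu1 alone read 22.8 and 12.3 TPM against 19.4 and 20.0 TPM. Lin28b, a fetal regulator of the let-7 microRNAs, read at most 0.0725 TPM in any library. Ebf1, the early B cell factor, read 0.185 and 0.0573 TPM against 1.44 and 1.29 TPM (limma, adjusted p = 0.0267), and it too was tested only because the second group was higher. Its call was lost without Hif1a-intact replicate 2 (adjusted p = 0.0515), and without either library labelled Hif1a-null it was not tested.

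Cdkn2a, which encodes the cell cycle inhibitors p16 and p19 and is the best known target of Bmi1, fell. It read 8.46 and 5.55 TPM against 2.04 and 1.37 TPM, so that both libraries labelled Hif1a-null lay below both others. The fitted log2 fold change was -1.55 (standard error 0.25; limma, adjusted p = 0.0441), and the call was lost in 7 of 16 alternatives, including each library left out in turn (adjusted p from 0.0528 to 0.374). Prdm16, a stem cell regulator, read 5.52 and 10.4 TPM against 2.04 and 0.300 TPM and did not pass (limma, adjusted p = 0.109). The remaining tested gene, Igf2bp2, named here after its values were seen, had a log2 fold change of -0.40 (limma, adjusted p = 0.205).

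**Figure D4:**
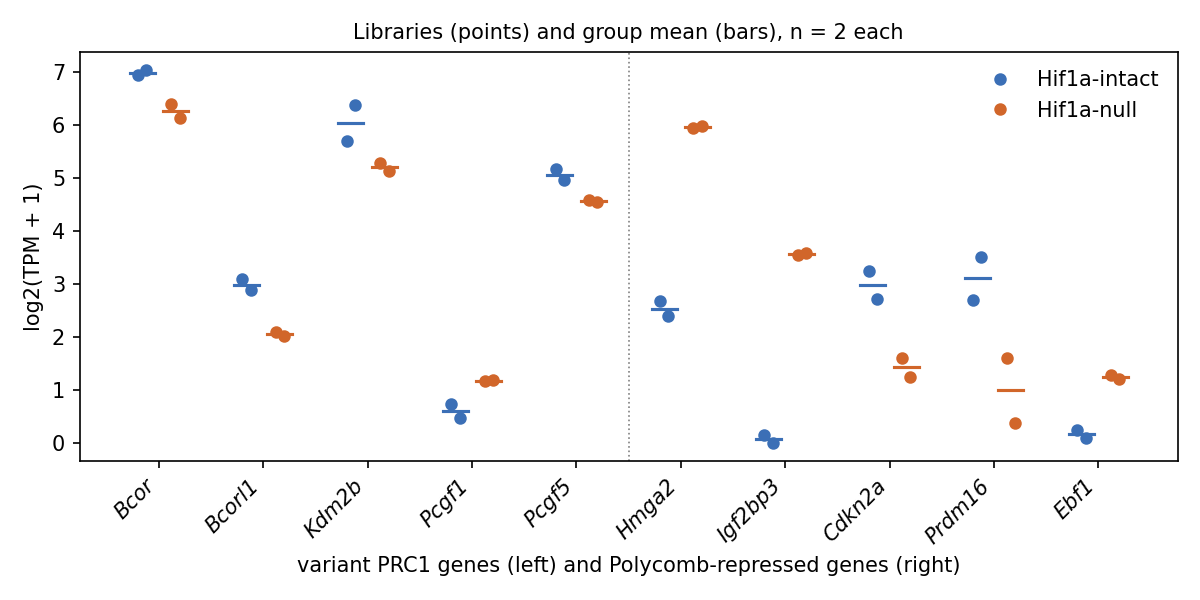
Log2(TPM + 1) in each library (points) with group means (bars, n = 2 each) for 5 variant PRC1 genes and 5 Polycomb-repressed genes. Bcorl1 and Cdkn2a are lower, and Hmga2, Igf2bp3 and Ebf1 higher, in the libraries labelled Hif1a-null.

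Cell cycle genes were measured beside Ezh2, whose transcript is known to follow division. None of 20 S phase and mitosis genes was called by limma, where 7.27% of all tested genes were. At an unadjusted p under 0.05, 3 were higher and none lower, against 23.2% of all tested genes in either direction. In 13 of them the groups did not overlap and all 13 were higher, where 22.7% of all tested genes were higher without overlap. This list too was chosen with earlier results of these data known. The list median was 0.28. Ccna2 read 107 and 112 TPM against 165 and 173 TPM (log2 fold change 0.62; limma, adjusted p = 0.0724). Summed with Exosc9, which overlaps it, the log2 fold change was 0.25 (limma, adjusted p = 0.339). Exosc9 is a different gene that reached 196 TPM, so this sum cannot tell whether Ccna2 itself changed. Rrm2, Birc5, Ccnb2 and Top2a had log2 fold changes of 0.77, 0.60, 0.32 and 0.31.

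Markers of several cell types moved between the groups, and fewer cells of a type cannot be told apart from less RNA per cell in such bulk samples. The counts that follow stand beside the 5.25% of all tested genes called higher and the 2.02% called lower. The marker lists were chosen with earlier results of these data known. Erythroid markers rose in 7 of 8 genes, of which Klf1 and Epor passed the filter only through the libraries labelled Hif1a-null, with a summed level of 117 to 175 TPM in the Hif1a-intact and 6544 to 7073 TPM in the other libraries. B-lineage markers rose in 6 of 7 (17.9 to 21.6 against 224 to 229 TPM, Ebf1 among them). T and NK markers rose in 6 of the 6 tested of 7 (5.64 to 6.43 against 62.6 to 66.8 TPM, with Gzma listed at 0 in both Hif1a-intact libraries). Most of these lymphoid markers passed the filter only through the libraries labelled Hif1a-null, which fixed their direction. Megakaryocyte markers rose in 4 of 6, granulocyte markers in 4 of 8, and stromal markers in 2 of 6 with 1 lower. Monocyte and macrophage markers had 1 higher and 1 lower of 6. Stem and progenitor markers rose in 1 of 7 tested (Hlf), and their sum was 413 to 426 against 368 to 375 TPM. The part of these shifts in the values of Bmi1, Hmga2, Igf2bp3, Ebf1, Bcorl1 and Cdkn2a was not tested.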

How the data were processed

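RNA was taken from CD117-selected marrow cells, per the labels' protocols. The authors quantified expression with kallisto and name the mm10 build, per the submitters' processing notes. The sources used here do not give the version, transcript set or strand setting. Values are deposited by the authors as TPM per Ensembl gene, with library sums from 955562 to 963135. GENCODE vM21 (GRCm38) supplied symbols for 27458 of 28987 genes. TPM keeps no counts, so depth and counting error are unknown, and an exact 0 can be a failed estimate.

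Groups came from the genotype labels. Tests were run two-sided with limma 3.58.1 (R 4.3.3) on log2(TPM + 1), which understates changes of low genes. On simulated data limma recovered 16%, 54%, 84% and 92% of genes given a log2 change of 1, 2, 3 and 5. That simulation changed few genes and gave 130 calls against 866 in the data, so it does not measure the power here. The members, the other gene lists and the rules were chosen with earlier results of these data known. Named were all members, Hif1a, Runx1, Kmt2a and up to 5 tested genes of smallest p per list other than marker lists. Copies were searched with blastn 2.17.0 (at least 95% identity over 50% of the shorter transcript and 100 bases). The search had no strand filter, so overlapping neighbours such as Malsu1 and Exosc9 counted as copies. Alternatives covered variance models, scaling, filters, pseudocounts, protein-coding genes, copies and each library left out. Summing every listed gene with its copies was added after seeing the data. Permutation tests used scipy 1.17.1 and figures matplotlib 3.10.9. Results for 2 listed genes are not reported here.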

Additional observations from a re-analysis of the deposited data

How the results depend on the processing

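Over 168 values of the 10 Polycomb genes under alternatives, 0 passed the threshold and 14 changed sign. Bmi1, Rnf2, Cbx8 and Jarid2 kept theirs, and Cbx7 and Cbx8 were not tested with a mean of at least 5 TPM. With quantile normalization, median-ratio rescaling and the 50 most abundant genes left out, Ezh2 was 0.06, 0.01 and 0.04 and Eed 0.01, 0.02 and 0.05. Cbx7 was -0.05 with the first, Kmt2a 0.02 and 0.04 with the other two, and Ring1 0.02 with the last. Leaving out each library in turn gave log2 fold changes from -0.06 to 0.56 for Ezh1, -0.14 to 0.03 for Ezh2, -0.29 to 0.21 for Eed, -0.06 to 0.23 for Suz12 and -0.06 to 0.19 for Cbx7. They ran from -0.09 to 0.01 for Kmt2a, -0.09 to 0.38 for Phf19 and -0.31 to 0.01 for Bap1, and the log2 ratio differences from -0.71 to 0.04 for Ezh2 to Ezh1 and -0.35 to 0.02 for Rnf2 to Ring1. Genes called higher then ran from 0 to 731 and lower from 0 to 288, against 625 and 241. The counts were 11 and 8 without Hif1a-null replicate 1, and 0 and 0 without replicate 2, where the Hif1a-intact pair alone gives the spread and the lone library is assumed to vary likewise. A mean of at least 5 TPM gave 231 and 112, a pseudocount of 5 gave 399 higher, and no filter 138 lower. Variant PRC1 genes called lower were 0 with no filter, a mean of at least 5 TPM and a pseudocount of 5, and 0 to 1 with a library left out. Polycomb-repressed genes called lower were 0 in those settings (with the mean of 5 TPM Cdkn2a was not tested), with a pseudocount of 0.1 and with any library left out, and those called higher ran from 0 to 3. Depth is unknown, and 2 libraries a group limit every test. Except where fewer genes or libraries were fitted, the cause was not tested. No paired analysis was possible because the labels give no shared replicate numbers.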

Other observations

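Values chosen after they were seen concern genes around the Polycomb set. Usp7, a deubiquitinase found with variant PRC1, was listed at 800.0, 2474, 1300.4 and 1442 TPM (Hif1a-intact, then Hif1a-null, replicates 1 and 2 of each). That is far above Suz12, the most abundant core gene, and the Hif1a-intact pair differed more than the groups did. Commd3, the next gene upstream of Bmi1 on the same strand, read 165 and 125 TPM against 119 and 108 TPM, also without overlap (limma, adjusted p = 0.386). Apobec3, a cytidine deaminase gene that overlaps the end of Cbx7 on the opposite strand, read 87.6 and 88.1 TPM against 59.0 and 52.0 TPM and did not pass (limma, adjusted p = 0.0758).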
